A study of Homo sapiens and Mus musculus with 16 samples.

Results

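LIN28A, LIN28B, L1TD1, IGF2BP1, IGF2BP2, IGF2BP3 and HMGA2 form a small network of genes that is active in embryonic and many tumour cells. Most of them, but not all, are largely silenced in adult tissue. These 7 genes were chosen by symbol, with earlier results of these data known, as were the gene lists used further on. Counts of members or list genes set beside shares of all genes therefore describe this choice and test nothing. All 7 were found among the 22286 genes of the human count table and, ignoring case, all 7 among the 15881 genes of the mouse table. For each, the level in CPM (the gene's count scaled to the library's total) and the change between P-bodies and cytoplasm were measured in every cell type. P-bodies are cytoplasmic condensates of RNA and protein in which repressed mRNAs gather, and P-body-seq sorts them out of a cytoplasmic lysate by a fluorescent tag, and reads their RNA next to RNA of the unsorted cytoplasm.

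The 16 libraries were 2 P-body and 2 cytoplasm libraries from each of 4 cell types, with total counts of 6368953 to 17972284. HEK293T, a line of human kidney origin, was used as HEK293T-LSM14a-GFP. UCLA4-LSM14a-GFP, a human embryonic stem cell line, gave rise to both the liver bud progenitors and the neurons of day 20. Mouse embryonic stem cells (mESC) were KH2-LSM14a-GFP and were labelled as grown in serum-LIF, whereas the study's methods for naive mouse cells describe a serum-free medium with kinase inhibitors and LIF. All groups therefore carried LSM14A, a P-body protein, fused to GFP. The study's methods place this transgene under the EF1a promoter in a lentivirus for HEK293T and mouse cells and at the AAVS1 locus in UCLA4. No untagged cells or second line per cell type entered these comparisons. The libraries of HEK293T and mESC were labelled total RNA and those of the liver bud progenitors and neurons polyA RNA, so that cell type and library preparation cannot be told apart when HEK293T is set against the other human cells.

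The cell labels were checked with marker genes. The neurons held 7911 to 9657 CPM of 6 neuronal markers in sum, against 138 to 143 CPM in the liver bud progenitors, and 569 to 1047 CPM of 6 neural progenitor markers. Of 8 liver bud markers, the liver bud progenitors held APOB at 107 to 310 CPM, TTR at 34.9 to 47.5 CPM, HNF4A at 13.8 to 40.04 CPM and AFP at 5.45 to 8.16 CPM. Each of these reached at most 4.86 CPM in the neurons and HEK293T. FOXA2 and APOA1 were also higher than in both, though APOA1 reached only 2.36 CPM. HHEX, at 0.524 to 1.85 CPM, and TBX3, at 11.7 to 31.4 CPM, were lower than in HEK293T (3.04 to 4.23 and 79.2 to 124 CPM). The liver bud progenitors still held the pluripotency genes POU5F1 at 82.5 to 95.4 CPM, NANOG at 32.7 to 51.8 CPM and TDGF1 at 116 to 218 CPM. In the neurons POU5F1 reached 1.74 CPM, while SOX2, which neural progenitors also express, reached 249.7 CPM. In mESC, Pou5f1 was at 372 to 656 CPM, Nanog at 638 to 727 CPM and Esrrb at 267 to 547 CPM. In such bulk samples fewer cells of a type and less RNA per cell cannot be told apart. The 2 neuron P-body libraries differed more from each other (chi-square per gene 21.1, Spearman's rho 0.911 across genes) than any other pair of replicates (chi-square per gene 2.0 to 5.45).

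LIN28A and LIN28B are RNA-binding proteins that block the maturation of let-7 microRNAs. LIN28A does so in the cytoplasm by recruiting the uridylyl transferases TUT4 and TUT7 to let-7 precursors. let-7 in turn represses LIN28B, HMGA2 and the IGF2BP genes through sites in their 3′ UTRs, so that both sides hold each other in check. L1TD1 is an RNA-binding protein of pluripotent cells derived from a LINE-1 open reading frame. IGF2BP1, IGF2BP2 and IGF2BP3 bind and stabilise mRNAs such as IGF2, MYC and ACTB, and HMGA2 is an architectural protein of chromatin.

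The let-7 sequences show what the members share. All 9 distinct mature 5p sequences of the human let-7 and miR-98 genes (RefSeq, GRCh38.p14) had the same seed, bases 2 to 8, given in capitals for 4 of them:
hsa-let-7a-5p: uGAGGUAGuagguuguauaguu
hsa-let-7b-5p: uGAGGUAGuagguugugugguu
hsa-let-7g-5p: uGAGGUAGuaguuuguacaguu
hsa-miR-98-5p: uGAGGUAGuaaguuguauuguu

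Of the 12 hairpins these come from, 9 held GGAG, the letters LIN28 is known to bind, downstream of the 5p arm, and 3 (MIRLET7A3, MIRLET7B and MIR98) did not. The microRNAs themselves were not measured in these libraries. The reverse complement of the seed, CTACCTC, was searched on the sense strand of the 3′ UTRs in 1 transcript per gene (MANE Select, GENCODE 44, hg38). A match occurred in 6 of the 7 members and in 10.3% of 17338 genes. HMGA2, LIN28B and IGF2BP1 held 4 matches each, a number reached by 12 genes in all, and LIN28A, IGF2BP2 and IGF2BP3 held 1 each. L1TD1 held none in its 3′ UTR of 956 bases, which says only that these letters are not in that window. The same 6 members held an 8mer, the match followed by an A, which 3.99% of genes did. The first 8mer of each is printed 5′ to 3′ on the sense strand, with the 8mer in capitals:
HMGA2 site 1: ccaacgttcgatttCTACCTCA
LIN28B site 1: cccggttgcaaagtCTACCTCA
LIN28A site 1: cacagcctattgaaCTACCTCA
IGF2BP1 site 1: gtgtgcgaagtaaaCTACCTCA
IGF2BP2 site 1: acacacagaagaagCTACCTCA
IGF2BP3 site 1: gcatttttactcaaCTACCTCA

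These windows lie at chr12:65963299-65963320 (plus strand), chr6:105078813-105078834 (plus), chr1:26427349-26427370 (plus), chr17:49051062-49051083 (plus), chr3:185644220-185644241 (minus) and chr7:23311795-23311816 (minus) of hg38. In the mouse (GENCODE M21, mm10), Hmga2, Lin28b and Igf2bp1 again held 4 matches each, Lin28a held 2, Igf2bp2 and Igf2bp3 held 1, and L1td1 held none, against 9.47% of 14657 genes with a match. Counting also matches to bases 2 to 7 followed by an A, which 16.7% of human genes had together with the first kind, the 7 human members held 22 matches in place of 15.

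**Figure D1:**
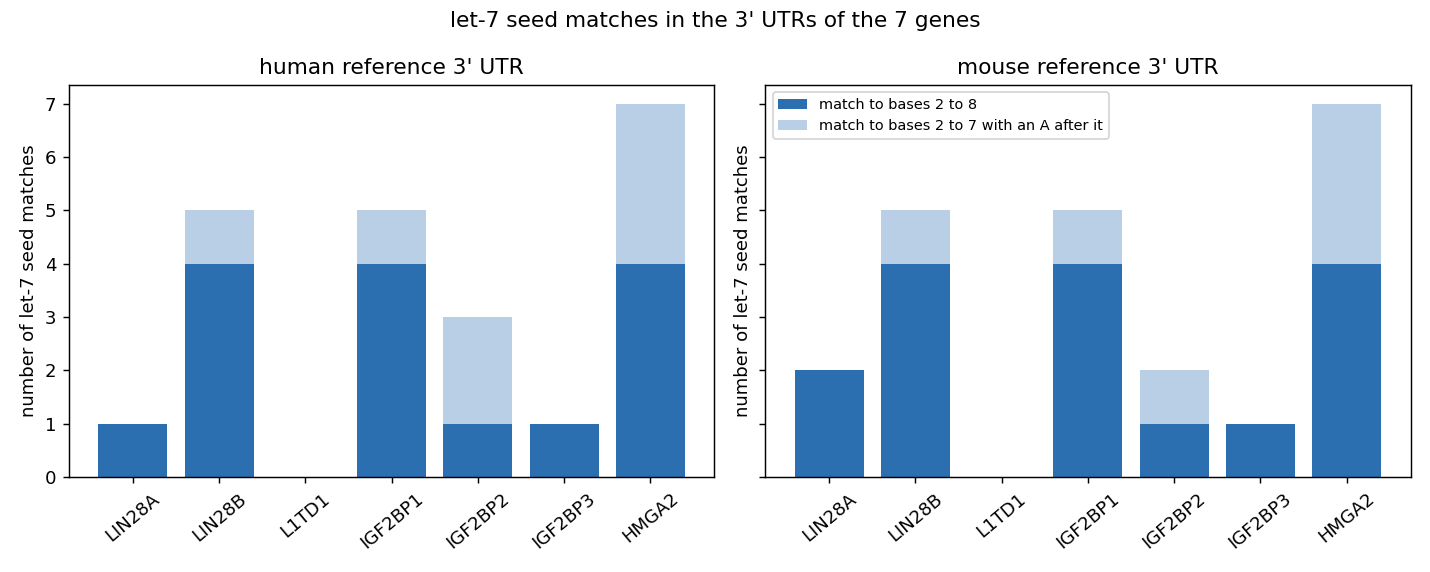
let-7 seed matches (vertical axis, number) in the reference 3′ UTR of each of the 7 genes, human on the left and mouse on the right; dark bars are matches to bases 2 to 8 and pale bars matches to bases 2 to 7 followed by an A. HMGA2, LIN28B and IGF2BP1 hold 4 dark matches in both species and L1TD1 holds none.

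LIN28B (chr6:104957107-105083332, plus strand, hg38) was enriched in P-bodies in each of the 4 cell types. In the neurons its P-body libraries stood at 97.6 and 119 CPM and its cytoplasm libraries at 10.3 and 8.99 CPM. Every P-body library was at least 9.49 times as high as either cytoplasm library, and the fitted log2 change was 3.32 ± 0.18 (SE; adjusted p = 2.86e-08, edgeR quasi-likelihood test with Benjamini-Hochberg adjustment over all genes, used throughout). In the liver bud progenitors LIN28B stood at 409 and 390 CPM in P-bodies and at 157 and 148 CPM in the cytoplasm, a log2 change of 1.57 ± 0.06 (adjusted p = 9.9e-32). HEK293T held 400 and 429 CPM in P-bodies and 233 and 215 CPM in the cytoplasm, with a log2 change of 1.02 ± 0.06 (adjusted p = 8.88e-23). The fractions did not overlap in any human cell type. How many of all genes show such a gap between fractions of 2 libraries each was not counted, here or for the members below. Mouse Lin28b followed the same direction, with 73.5 and 81.5 CPM in P-bodies, 41.0 and 43.9 CPM in the cytoplasm and a log2 change of 1.27 ± 0.08 (adjusted p = 3.38e-12). Among all genes tested, the share with a lower log2 change than LIN28B was 90.0% in the neurons, 95% in the liver bud progenitors, 82.7% in HEK293T and 93.8% in mESC.

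LIN28A (chr1:26410817-26429728, plus strand) was abundant only in the liver bud progenitors among the 4 cell types. There it reached 719 and 747 CPM in P-bodies and 657 and 658 CPM in the cytoplasm, and its log2 change between the fractions was small, 0.34 ± 0.05 (adjusted p = 3.17e-08). In the neurons LIN28A stood at 13.1 and 11.1 CPM in P-bodies and at 3.05 and 3.29 CPM in the cytoplasm. These low values did not overlap, and the log2 change was 1.76 ± 0.38 (adjusted p = 0.00348). Of all genes tested, 78.1% had a lower change than LIN28A in the neurons and 64.8% in the liver bud progenitors. HEK293T had 13 and 19 counts of LIN28A in P-bodies and 7 in each cytoplasm library, against a detection floor of 3 counts, and the change of 0.78 ± 0.64 did not pass the test (adjusted p = 0.379). Mouse Lin28a was also low, at 4.18 and 4.42 CPM in P-bodies and 6.5 and 7.47 CPM in the cytoplasm, in libraries with the pluripotency markers given above. Its log2 change of -0.3 ± 0.24 did not pass the test (adjusted p = 0.315).

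L1TD1 (chr1:62194849-62212328, plus strand) followed the levels of LIN28A in the human cells but not its small difference between fractions. In the liver bud progenitors it stood at 1408 and 1334 CPM in P-bodies and at 509 and 475 CPM in the cytoplasm, with no overlap and a log2 change of 1.67 ± 0.05 (adjusted p = 5.09e-39). Of all genes tested there, 95.3% had a lower change. The neurons held 26 and 33 counts in P-bodies and 15 and 17 in the cytoplasm (3.01, 3.49, 1.31 and 1.64 CPM), and the log2 change of 0.97 ± 0.65 did not pass the test (adjusted p = 0.292). HEK293T held 3 to 7 counts per library, close to the floor of 3, and no change was detectable at this depth (0.23 ± 1.02, adjusted p = 0.903). Mouse L1td1 was expressed at 66.1 and 62.3 CPM in P-bodies and 91.9 and 87.4 CPM in the cytoplasm. On the scale of the fit, which rescales the libraries, its log2 change was -0.08 ± 0.07 (adjusted p = 0.401).

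IGF2BP1 (chr17:48997385-49056145, plus strand), known for carrying ACTB and MYC mRNA, was depleted from P-bodies in all 3 human cell types, against the direction of LIN28B. HEK293T held 78.3 and 73.7 CPM in P-bodies and 205 and 197 CPM in the cytoplasm, a log2 change of -1.27 ± 0.07 (adjusted p = 6.16e-24). The liver bud progenitors held 268 CPM in both P-body libraries and 417 and 421 CPM in the cytoplasm, a log2 change of -0.46 ± 0.06 (adjusted p = 7.27e-10). In the neurons the 4 values lay close together, at 221 and 190 CPM in P-bodies and 228 and 238 CPM in the cytoplasm. The log2 change there was -0.34 ± 0.10 (adjusted p = 0.0223). It no longer passed with RLE size factors (-0.29, adjusted p = 0.0544), with library size as the only scaling (-0.18, adjusted p = 0.241), after filtering with filterByExpr (-0.24, adjusted p = 0.0807), or without P-body replicate 2 (-0.23, adjusted p = 0.0781), cytoplasm replicate 1 (-0.36, adjusted p = 0.0822) or cytoplasm replicate 2 (-0.36, adjusted p = 0.0795).

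IGF2BP2 (chr3:185643130-185825042, minus strand) differed little between the fractions. The liver bud progenitors held 474 and 511 CPM in P-bodies and 366 and 371 CPM in the cytoplasm, a log2 change of 0.60 ± 0.06 (adjusted p = 1.05e-14). Of all genes tested, 73.9% had a lower change there and 57.6% in HEK293T. In HEK293T the values were 98.9 and 92.9 CPM against 87.2 and 92.5 CPM, and the log2 change of 0.22 ± 0.08 passed the test (adjusted p = 0.014) but not with library size alone (0.09, adjusted p = 0.384) or without P-body replicate 1 (0.17, adjusted p = 0.209). The neurons held 174 and 145 CPM in P-bodies and 143 and 169 CPM in the cytoplasm, fully overlapping, with a log2 change of -0.13 ± 0.12 (adjusted p = 0.459, 95% interval -0.38 to 0.13).

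IGF2BP3 (chr7:23310209-23470491, minus strand) was enriched in P-bodies in each human cell type. The neurons held 140 and 137 CPM in P-bodies and 50.0 and 49.8 CPM in the cytoplasm, a log2 change of 1.31 ± 0.12 (adjusted p = 2.89e-06). In the liver bud progenitors the values were 334 and 321 CPM against 203 CPM in both cytoplasm libraries (log2 change 0.88 ± 0.06, adjusted p = 1.54e-19). In HEK293T they were 106 and 100 CPM against 78.3 and 69.2 CPM (log2 change 0.61 ± 0.08, adjusted p = 1.71e-09). The fractions did not overlap in any of these. Of all genes tested, 71.9% had a lower change in the neurons, 82.1% in the liver bud progenitors and 71.7% in HEK293T. IGF2BP1 and IGF2BP3 thus moved in opposite directions within the same libraries, though the IGF2BP1 call in the neurons was lost under the alternatives given above. Their 3′ UTRs hold 4 and 1 matches to the let-7 seed, and a part of these in the direction was not tested.

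In mESC the IGF2BP family looked different, and its directions depended on the scaling. Igf2bp1 was at 787 and 832 CPM in P-bodies and 874 and 887 CPM in the cytoplasm, Igf2bp2 at 181 and 178 CPM against 183 and 168 CPM, and Igf2bp3 at 66.4 and 69.0 CPM against 98.4 and 86.7 CPM. The scaling factors of the fit moved the median gene by 0.4 on the log2 scale relative to library totals. With them, Igf2bp1 rose by 0.28 ± 0.04 (adjusted p = 9.98e-07) and Igf2bp2 by 0.43 ± 0.05 (adjusted p = 2.65e-07) in P-bodies, and Igf2bp3 changed by -0.05 ± 0.07 (adjusted p = 0.626). With library size alone Igf2bp1 was lower in P-bodies (-0.12, adjusted p = 0.00994), Igf2bp2 did not pass the test (0.03, adjusted p = 0.669), and Igf2bp3 (-0.45, adjusted p = 7.91e-06), L1td1 (-0.48, adjusted p = 2.04e-06) and Lin28a (-0.7, adjusted p = 0.0134) were depleted. Lin28b and Hmga2 were enriched under either scaling.

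HMGA2 (chr12:65824483-65966291, plus strand), a textbook let-7 target, was called in opposite directions in the liver bud progenitors and HEK293T, which differ in library preparation too. In the liver bud progenitors it was enriched in P-bodies, at 607 CPM in both P-body libraries against 312 and 270 CPM in the cytoplasm (log2 change 1.25 ± 0.06, adjusted p = 1.12e-28). In HEK293T it was depleted, at 44.5 and 46.7 CPM against 94.3 and 97.7 CPM (log2 change -0.94 ± 0.09, adjusted p = 1.03e-14). In the neurons it was at 13.8 and 14.5 CPM against 15.4 CPM in both cytoplasm libraries, and the log2 change of -0.29 ± 0.26 did not pass the test (adjusted p = 0.433). Mouse Hmga2 was low, at 6.31 and 6.81 CPM against 4.3 and 2.96 CPM, and was enriched (log2 change 1.26 ± 0.26, adjusted p = 0.000241). Antisense genes of HMGA2, LIN28B and IGF2BP2 are also in the human table. Whether the counting used strand is not stated in the sources used here, so reads of the partners cannot be told apart.

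**Figure D2:**
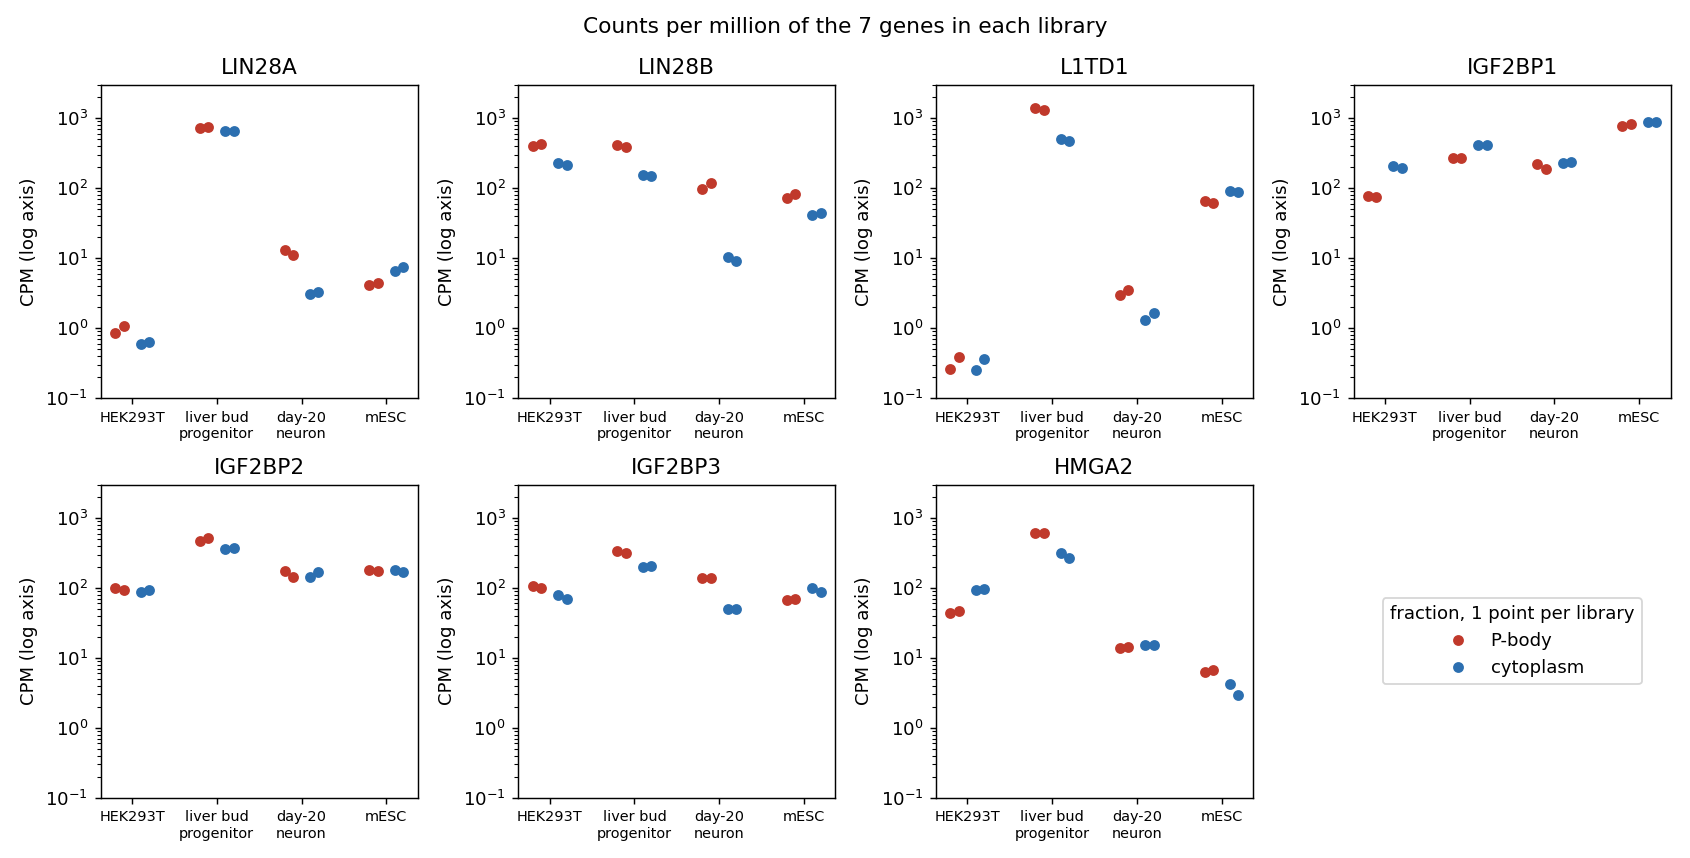
Level of each gene in each library (vertical log axis, CPM) by cell type, with red points for P-body and blue points for cytoplasm libraries, 1 point per library. LIN28A and L1TD1 stand above 400 CPM in the liver bud progenitors and below 15 CPM in the neurons and HEK293T, whereas the IGF2BP genes stay above 45 CPM in every library.

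**Figure D3:**
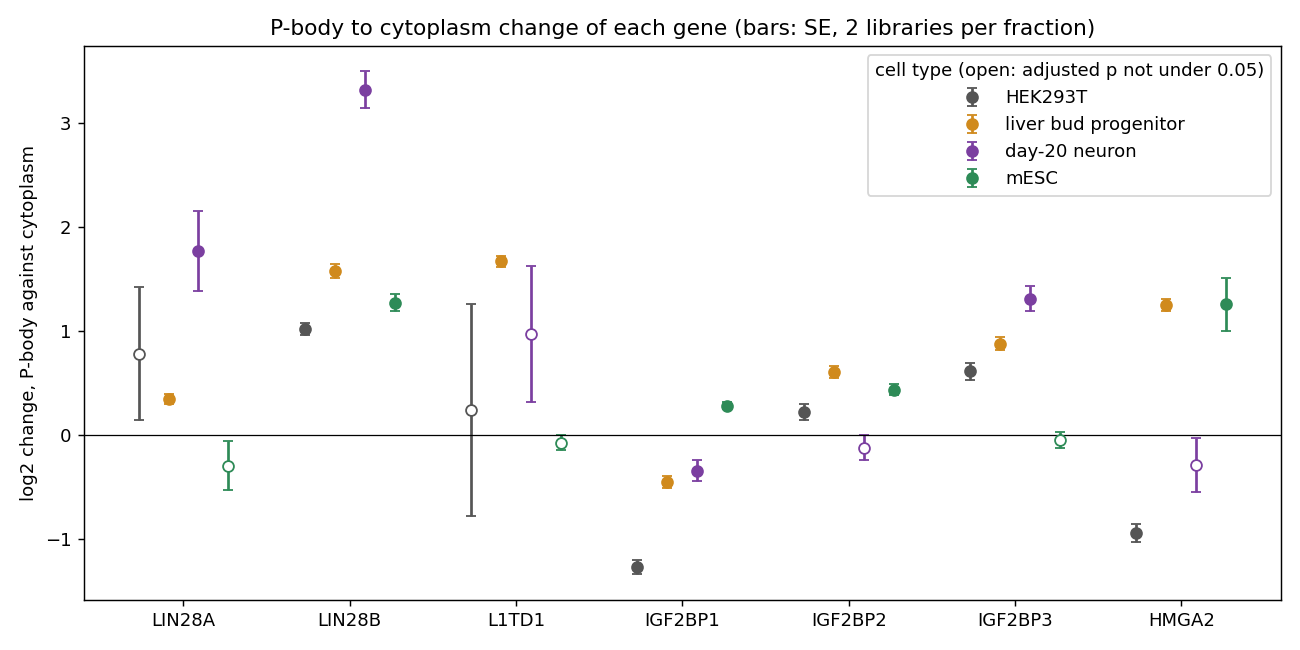
Fitted log2 change between P-bodies and cytoplasm (vertical axis) of each gene in the 4 cell types; bars are the SE, and open points did not pass an adjusted p of 0.05. LIN28B lies above 1 in all 4 cell types and at 3.32 in the neurons, and HMGA2 lies at -0.94 in HEK293T and at 1.25 in the liver bud progenitors.

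Counted over the members, 3 of 7 were enriched in the P-bodies of HEK293T, where 19.3% of 21903 genes tested were, and 2 were depleted (22.8% of genes). In the liver bud progenitors 6 were enriched (21.4% of genes) and 1 depleted (17.1%). In the neurons 3 were enriched (14.6%), namely LIN28A, LIN28B and IGF2BP3, and 1 depleted (14.1%), and in mESC 4 were enriched (25.8%) and none depleted (20.6%). With library size alone the mESC count turned to 2 enriched, Lin28b and Hmga2, and 4 depleted, Lin28a, L1td1, Igf2bp1 and Igf2bp3. The 6 of 7 in the liver bud progenitors thus stand furthest above their background, and the others lie nearer to it. These backgrounds cover every gene with a count, low ones included. After filterByExpr, which drops low genes, 4434 of 13691 genes were enriched in HEK293T and 4268 of 14413 in the liver bud progenitors. In the neurons 3577 of 15030 were, and in mESC 3757 of 12414. The enriched shares of all genes given here and for the lists below would thus be higher among expressed genes. The members' median log2 change was 0.24 in HEK293T, 0.88 in the liver bud progenitors, 0.97 in the neurons and 0.28 in mESC, beside medians over all genes of -0.01, -0.09, 0.19 and -0.11. The background itself moved with the scaling. With library size alone enrichments made up 44.1% of calls in place of 55.7% in the liver bud progenitors, 62.0% in place of 50.8% in the neurons and 28.2% in place of 55.6% in mESC. With all 12 human libraries in a single fit, all 7 members passed the test in the neurons, L1TD1 at 0.87 (adjusted p = 0.0146), IGF2BP2 at -0.24 (adjusted p = 0.039) and HMGA2 at -0.4 (adjusted p = 0.012) being added. Calls rose over all genes too. That fit called 4387 enriched and 4936 depleted of 22286 genes in the neurons, in place of 3220 and 3123 of 22093.

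Liver bud progenitors and neurons come from the same line and the same kind of library, so their P-body enrichments can be compared directly, as an interaction fitted over 8 libraries with scaling factors of their own. Enrichment was stronger in the neurons for LIN28B (difference of the log2 changes 1.74 ± 0.16, adjusted p = 1.91e-06) and LIN28A (1.41 ± 0.17, adjusted p = 2.82e-05), and weaker for HMGA2 (-1.54 ± 0.14, adjusted p = 2.46e-06) and IGF2BP2 (-0.74 ± 0.14, adjusted p = 0.00147). IGF2BP3 differed by 0.42 ± 0.12 (adjusted p = 0.0206). That call was lost in the fit of all 12 human libraries (0.34, adjusted p = 0.0502) and when any 1 of 7 of the 8 libraries was left out (0.29 to 0.44, adjusted p = 0.0669 to 0.178), the exception being neuron P-body replicate 2. The IGF2BP2 call was lost with library size alone (-0.38, adjusted p = 0.0735). IGF2BP1 differed by 0.11 ± 0.12 (adjusted p = 0.596, 95% interval -0.15 to 0.36; 0.46 with library size alone, adjusted p = 0.014) and L1TD1, at the neurons' low counts, by -0.69 ± 0.30 (adjusted p = 0.128). Of the 7 members 3 were thus higher in the neurons, where 9.21% of all genes were, and 2 lower, where 8.5% were. The split of calls over all genes was 52.0% higher, and 78.9% with library size alone or 62.9% after filterByExpr.

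Against HEK293T the preparation of the library changes along with the cell type. The enrichment of LIN28B was higher in the neurons than in HEK293T by 2.16 ± 0.17 (adjusted p = 5.51e-07) and that of IGF2BP1 by 0.79 ± 0.13 (adjusted p = 0.000636). IGF2BP3 differed by 0.56 ± 0.15 (adjusted p = 0.0228) and IGF2BP2 by -0.49 ± 0.15 (adjusted p = 0.0427). Both of the latter calls were lost without neuron cytoplasm replicate 1 or 2, HEK293T P-body replicate 1 or 2, or HEK293T cytoplasm replicate 1, which left 2 members called (IGF2BP2 -0.40 to -0.57, adjusted p = 0.054 to 0.179, and IGF2BP3 0.44 to 0.60, adjusted p = 0.052 to 0.146). The IGF2BP2 call was also lost without HEK293T cytoplasm replicate 2 (-0.51, adjusted p = 0.117), with library size alone (-0.06, adjusted p = 0.867) and after filterByExpr (-0.35, adjusted p = 0.139), and that of IGF2BP3 with ribosomal RNA genes left out (0.41, adjusted p = 0.0818). HMGA2 differed by 0.51 ± 0.20 (adjusted p = 0.11), and passed the test with library size alone (0.95, adjusted p = 0.00313) and after filterByExpr (0.65, adjusted p = 0.0272). LIN28A (0.84 ± 0.66, adjusted p = 0.468) and L1TD1 (0.60 ± 1.07, adjusted p = 0.791) were too low in HEK293T for a firm value. Thus 3 members were called higher (6.35% of all genes) and 1 lower (6.19%), with 50.6% of all calls higher. That share was 88.2% with library size alone, 65.7% after filterByExpr, 40.3% with DESeq2 and 35.5% without ribosomal RNA genes.

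Between liver bud progenitors and HEK293T the enrichment of HMGA2 differed by 1.96 ± 0.10 (adjusted p = 6.87e-22), its values lying on opposite sides of 0. IGF2BP1 was 0.59 ± 0.09 higher in the liver bud progenitors (adjusted p = 8.9e-07), where its depletion was weaker. LIN28B was 0.33 ± 0.09 higher (adjusted p = 0.00409), a call lost without liver bud progenitor cytoplasm replicate 2 (0.24, adjusted p = 0.11) or HEK293T P-body replicate 1 (0.20, adjusted p = 0.176). IGF2BP2 (0.15 ± 0.09, adjusted p = 0.241) and IGF2BP3 (0.04 ± 0.10, adjusted p = 0.853) did not pass, and 95% intervals ran from -0.03 to 0.34 and from -0.17 to 0.25. LIN28A (-0.67 ± 0.43, adjusted p = 0.288) and L1TD1 (1.20 ± 0.72, adjusted p = 0.248) did not pass either. For IGF2BP2 the difference passed with library size alone (0.33, adjusted p = 0.0046), after filterByExpr (0.34, adjusted p = 0.00522) and without ribosomal RNA genes (0.23, adjusted p = 0.0496). The 3 members called higher stand beside 12.5% of all genes, and none was called lower, as 15.0% of genes were. Higher calls made up 45.5% of all calls, 59.4% with library size alone and 60.8% after filterByExpr.

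In level, all 7 members were lower in the neurons than in the liver bud progenitors, in both fractions. In the cytoplasm 25.8% of all genes were lower and 26.0% higher, and in P-bodies 22.7% were lower and 18.4% higher. The 2 genes of the pluripotent state fell furthest. L1TD1 changed by -7.99 ± 0.14 on the log2 scale in the cytoplasm (254-fold lower, adjusted p = 1.03e-57) and by -8.86 ± 0.11 in P-bodies (463-fold lower, adjusted p = 1.83e-10). LIN28A changed by -7.31 ± 0.12 in the cytoplasm (158-fold lower, adjusted p = 3.2e-59) and by -6.07 ± 0.11 in P-bodies (adjusted p = 4.8e-10). The sum of 6 pluripotency markers was 482 to 490 CPM in the cytoplasm and 661 to 680 CPM in the P-bodies of the liver bud progenitors, and 76.3 to 77.7 CPM and 236 to 271 CPM in those of the neurons. SOX2 made up most of the neuron sums, at 61.7 to 66.4 CPM in the cytoplasm and 211 to 249.7 CPM in P-bodies, against 79.1 to 83.7 CPM and 119.9 to 120.7 CPM in the liver bud progenitors. POU5F1 stood at 84.3 to 87.3 CPM in the cytoplasm of the liver bud progenitors and at 0.0967 to 0.436 CPM in that of the neurons, and NANOG at 32.7 to 36.1 CPM and 0.0871 to 0.58 CPM. The part of these markers in the fall was not tested.

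HMGA2 and LIN28B fell next. HMGA2 changed by -3.85 ± 0.11 in the cytoplasm (14.5-fold lower, adjusted p = 7.61e-45) and by -5.57 ± 0.09 in P-bodies (47.4-fold lower, adjusted p = 4.37e-10). LIN28B went the other way about, with -3.59 ± 0.13 in the cytoplasm (12.1-fold lower, adjusted p = 3.2e-38) but only -2.03 ± 0.11 in P-bodies (4.07-fold lower, adjusted p = 2.59e-07). The fall of LIN28B was therefore the smaller in P-bodies and that of HMGA2 the larger, which is the interaction given above seen from the side of the levels.

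The IGF2BP genes fell less. IGF2BP3 changed by -1.64 ± 0.10 in the cytoplasm (adjusted p = 1.1e-25) and -1.39 ± 0.08 in P-bodies (adjusted p = 6.15e-07), IGF2BP2 by -0.86 ± 0.08 (adjusted p = 2.25e-15) and -1.77 ± 0.10 (adjusted p = 4.56e-07), and IGF2BP1 by -0.46 ± 0.08 (adjusted p = 2.64e-07) and -0.53 ± 0.09 (adjusted p = 0.00121). With library size alone 36.5% of all cytoplasm calls were higher in the neurons in place of 50.2%, and all 7 members remained called under every alternative run for both fractions.

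**Figure D4:**
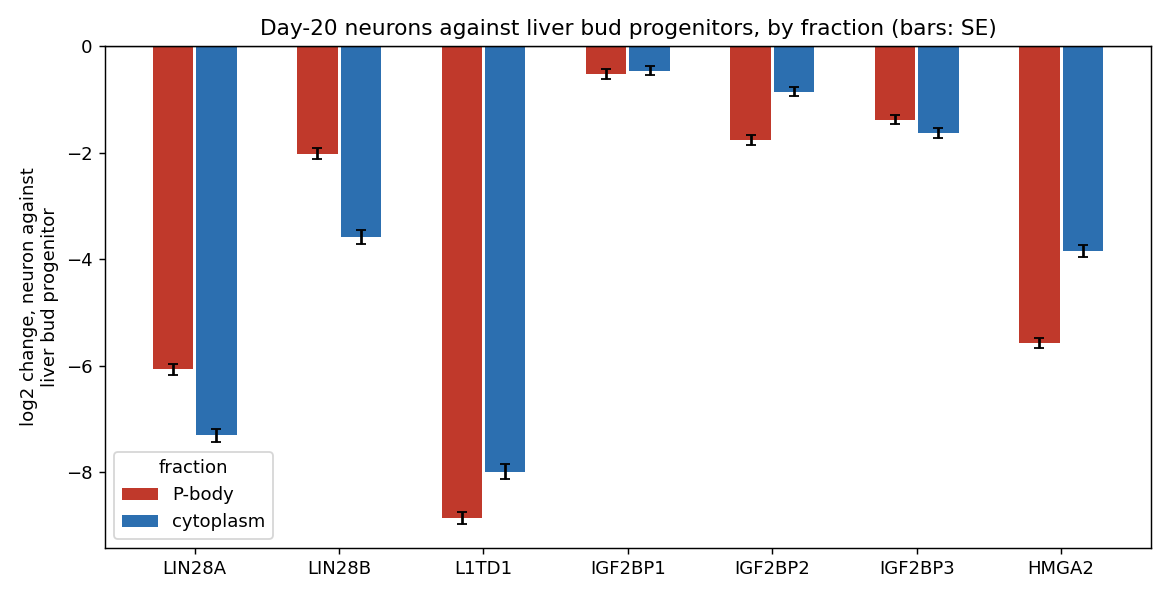
Fitted log2 change of each gene in day-20 neurons against liver bud progenitors (vertical axis), with red bars for the P-body and blue bars for the cytoplasm libraries; error bars are the SE. All 14 bars lie below 0, from -0.46 for IGF2BP1 in the cytoplasm to -8.86 for L1TD1 in P-bodies, and LIN28B falls less in P-bodies than in the cytoplasm while HMGA2 falls more.

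Across the human cytoplasm libraries the order of levels differed by gene, and the place of HEK293T in it cannot be told apart from its library preparation. LIN28A, L1TD1, IGF2BP1 and IGF2BP2 ran from liver bud progenitors through neurons to HEK293T, IGF2BP3 and HMGA2 from liver bud progenitors through HEK293T to neurons, and LIN28B from HEK293T through liver bud progenitors to neurons. The ranges of neighbouring cell types did not overlap for any of the 7, with 2 libraries each, and the same held for 49.9% of 22155 genes. Scaled to transcript length, which allows genes to be compared, the P-body level in the liver bud progenitors was 358 CPM per kb for L1TD1, 184 for LIN28A, 147 for HMGA2, 115 for IGF2BP2, 76.6 for IGF2BP3, 73.3 for LIN28B and 30.5 for IGF2BP1. In the neuron cytoplasm LIN28B was at 1.77 CPM per kb, against 19.9 CPM per kb in the P-bodies.

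The members' transcripts differed in composition. LIN28B had the lowest GC content of the 7, 38.0%, below which 8.3% of 17338 genes lay, followed by L1TD1 at 40.4%, IGF2BP3 at 40.5% and HMGA2 at 43.5%. LIN28A at 48.4%, IGF2BP2 at 48.9% and IGF2BP1 at 49.1% lay near the median of 48.6%. In direction, LIN28B, L1TD1, IGF2BP3, LIN28A and IGF2BP2 were enriched in P-bodies wherever they passed the test in a human cell type's own fit. IGF2BP1, with the highest GC content of the 7, was depleted, and HMGA2 was called in both directions. Whether GC content bears on direction was not tested. IGF2BP1 also had the longest 3′ UTR, 6701 bases, against 4549 for LIN28B, 3270 for LIN28A, 2999 for HMGA2 and a median of 1208.

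The genes that act on let-7 beside LIN28 showed a split. Of 11 regulators, 4 rose in P-bodies and 7 fell in HEK293T, 4 and 6 did in the liver bud progenitors, 4 and 5 in the neurons, and 3 and 6 in mESC. The enriched shares were 36.4% in each human cell type and 27.3% in mESC, beside 19.3%, 21.4%, 14.6% and 25.8% of all genes, so that mESC lay near the background, and 22.8%, 17.1%, 14.1% and 20.6% of all genes were depleted. The medians were -0.56, -0.44, -0.37 and -0.24, beside -0.01, -0.09, 0.19 and -0.11 over all genes. TUT4, the uridylyl transferase that LIN28A recruits, was enriched everywhere, by 1.54 ± 0.05 in HEK293T (adjusted p = 7.58e-34), 0.68 ± 0.05 in the liver bud progenitors (adjusted p = 4.35e-18), 2.01 ± 0.08 in the neurons (adjusted p = 3.08e-09) and 1.31 ± 0.04 in mESC (adjusted p = 1.81e-19). KHSRP, a protein that promotes let-7 processing, was depleted everywhere, by -1.36 ± 0.07, -0.80 ± 0.08, -0.77 ± 0.12 and -0.94 ± 0.05 in the same order (adjusted p = 8.09e-25, 6e-13, 0.000211 and 3.25e-13). TUT7, another uridylyl transferase, also rose in all 4, by 0.94, 0.61, 1.18 and 0.52 (adjusted p = 1.68e-18, 2.15e-11, 1.81e-06 and 1.26e-06), as did DICER1, which cuts the precursors, by 0.67, 1.01, 0.58 and 0.12 (adjusted p = 1.57e-17, 3.65e-27, 0.000672 and 0.0379). In mESC the rise of Dicer1 rests on the scaling of the fit. Its mean was 255 CPM in P-bodies and 309 CPM in the cytoplasm, and that of Tut7 was 79.9 and 73.8 CPM.

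XPO5, the exporter of precursors, fell in all 4 cell types, with log2 changes of -1.01 in HEK293T, -0.60 in the liver bud progenitors, -0.76 in the neurons and -0.24 in mESC (adjusted p = 2.16e-22, 5.6e-11, 5.71e-05 and 0.000791). DIS3L2, which degrades uridylated precursors, did so too, with -0.57, -0.64, -0.91 and -0.32 (adjusted p = 0.042, 0.007, 0.0109 and 0.0405). DROSHA fell in the 3 human cell types (-0.56, -0.82 and -0.37, adjusted p = 4.45e-09, 7.08e-15 and 0.0186) and stood at -0.01 in mESC (adjusted p = 0.879). TRIM25 fell in HEK293T, the liver bud progenitors and mESC (-0.53, -0.44 and -0.36, adjusted p = 4.85e-05, 0.00409 and 3.77e-05) and stood at -0.36 in the neurons (adjusted p = 0.411). TRIM71, itself a let-7 target, rose in the human cells (0.60, 0.34 and 1.45, adjusted p = 4.06e-05, 6.55e-08 and 5.64e-05) and fell in mESC (-0.28, adjusted p = 0.00604).

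Among 27 known let-7 targets that are no members, TRIM71 and DICER1 included, 13 were enriched and 8 depleted in HEK293T, 13 and 7 in the liver bud progenitors, 7 and 5 in the neurons, and 12 and 6 in mESC. The enriched shares were 48.1%, 48.1%, 25.9% and 44.4%, beside 19.3%, 21.4%, 14.6% and 25.8% of all genes. Depleted in the same order were 22.8%, 17.1%, 14.1% and 20.6% of all genes. Their median log2 changes were 0.30, 0.32, 0.02 and 0.24, beside -0.01, -0.09, 0.19 and -0.11 over all genes, so that in the neurons the median lay below that of all genes. NRAS rose in all 4 cell types, by 1.22 in HEK293T, 1.42 in the liver bud progenitors, 1.54 in the neurons and 0.97 in mESC (adjusted p = 3.87e-30, 5.46e-33, 1.16e-07 and 2.61e-16). PRTG, a cell surface protein of the early embryo, did so as well, by 1.03, 0.61, 3.44 and 0.53 (adjusted p = 3.58e-23, 1.66e-14, 2.35e-10 and 4.93e-10). The nuclear receptor NR6A1 rose in HEK293T (1.04, adjusted p = 2.4e-21), the neurons (1.84, adjusted p = 5.99e-06) and mESC (0.93, adjusted p = 6.2e-14) and fell in the liver bud progenitors (-0.47, adjusted p = 3.28e-08). PBX3 rose in mESC (1.11, adjusted p = 4.5e-10) and the liver bud progenitors (0.33, adjusted p = 0.0204), and stood at -0.07 in HEK293T (adjusted p = 0.664) and 0.04 in the neurons (adjusted p = 0.837).

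The receptor IGF1R was depleted in every cell type, by -1.20 ± 0.09 in HEK293T (adjusted p = 1.69e-17), -1.14 ± 0.07 in the liver bud progenitors (adjusted p = 5.5e-24), -1.04 ± 0.09 in the neurons (adjusted p = 2.01e-06) and -0.66 ± 0.07 in mESC (adjusted p = 2.87e-08). HMGA1, the relative of HMGA2, was depleted in HEK293T (-1.86 ± 0.08, adjusted p = 3.25e-29), the liver bud progenitors (-0.65 ± 0.06, adjusted p = 1.77e-16), the neurons (-0.89 ± 0.12, adjusted p = 8.46e-05) and mESC (-0.94 ± 0.19, adjusted p = 0.000215), so in all 4. ARID3B, a DNA-binding protein, fell in the liver bud progenitors (-0.69 ± 0.07, adjusted p = 1.17e-13) and did not pass the test in HEK293T (-0.13, adjusted p = 0.257), the neurons (0.02, adjusted p = 0.921) or mESC (-0.13, adjusted p = 0.0587). Processed copies of HMGA1, ACTB, YBX1 and PABPC1 in the genome make their counts uncertain.

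Of 9 RNAs known to be bound by IGF2BP proteins, 2 were enriched and 3 depleted in HEK293T, 2 and 4 in the liver bud progenitors, and 1 and 4 in the neurons, and 2 and 2 of the 7 tested in mESC. The enriched shares of 22.2%, 22.2%, 11.1% and 28.6% lay near those of all genes, 19.3%, 21.4%, 14.6% and 25.8%. Of all genes, 22.8%, 17.1%, 14.1% and 20.6% were depleted. The 4 of 9 depleted in the liver bud progenitors and in the neurons lay further above that background. The medians were -0.24, -0.46, -0.38 and -0.06, beside -0.01, -0.09, 0.19 and -0.11 over all genes. BTRC, a ubiquitin ligase subunit whose mRNA IGF2BP1 stabilises, rose by 1.23 ± 0.05 in HEK293T (adjusted p = 1.33e-28), 0.30 ± 0.08 in the liver bud progenitors (adjusted p = 0.00117), 1.07 ± 0.09 in the neurons (adjusted p = 1.45e-06) and 0.54 ± 0.07 in mESC (adjusted p = 4.51e-07). ACTB changed by -1.54 ± 0.06 in HEK293T (adjusted p = 2.4e-31), -0.72 ± 0.05 in the liver bud progenitors (adjusted p = 4.58e-21), -0.93 ± 0.07 in the neurons (adjusted p = 7.78e-07) and -0.96 ± 0.04 in mESC (adjusted p = 1.16e-15). MYC rose in HEK293T (0.52 ± 0.06, adjusted p = 2.59e-10) and, at a mean of 6.12 CPM, fell in the liver bud progenitors (-0.73 ± 0.29, adjusted p = 0.037), and it did not pass the test in the neurons (-0.38, adjusted p = 0.517) or mESC (0.33, adjusted p = 0.485). IGF2, the growth factor mRNA that gave the family its name, fell in the neurons (-1.67 ± 0.22, adjusted p = 8.47e-05), in the liver bud progenitors (-1.77 ± 0.25, adjusted p = 1.24e-08) and, at a mean of 2.0 CPM, in HEK293T (-2.95 ± 0.47, adjusted p = 2.31e-07).

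The mRNAs of 7 protein partners of IGF2BP1 were counted in the same way. In HEK293T 3 were enriched and 2 depleted, in the liver bud progenitors 5 and 0, in the neurons 2 and 2, and in mESC 4 and 2. The enriched shares were 42.9%, 71.4%, 28.6% and 57.1%, beside 19.3%, 21.4%, 14.6% and 25.8% of all genes. Depleted in the same order were 22.8%, 17.1%, 14.1% and 20.6% of all genes. Their median log2 changes were 0.12, 0.29, -0.02 and 0.59, beside -0.01, -0.09, 0.19 and -0.11. YBX1, a cold shock protein, was lower in HEK293T P-bodies (-0.41 ± 0.05, adjusted p = 2.67e-10) and neuron P-bodies (-0.75 ± 0.07, adjusted p = 4.69e-06) and higher in those of the liver bud progenitors (1.08 ± 0.05, adjusted p = 2.69e-30), and stood at 0.06 in mESC (adjusted p = 0.281). PABPC1, the poly(A)-binding protein, rose in HEK293T (0.24 ± 0.04, adjusted p = 3.55e-06), the liver bud progenitors (1.07 ± 0.03, adjusted p = 3.41e-39) and mESC (0.87 ± 0.03, adjusted p = 1.38e-17) and fell in the neurons (-0.53 ± 0.07, adjusted p = 8.37e-05). SYNCRIP rose in all 4 cell types, HEK293T (0.27 ± 0.06, adjusted p = 0.000185), the liver bud progenitors (0.86 ± 0.07, adjusted p = 1.66e-16), the neurons (1.14 ± 0.12, adjusted p = 1.13e-05) and mESC (0.93 ± 0.05, adjusted p = 1.8e-14), and the helicase DHX9 fell in HEK293T (-1.18 ± 0.06, adjusted p = 7.1e-25) and mESC (-0.58 ± 0.05, adjusted p = 6.74e-10) and stood at -0.03 in the liver bud progenitors (adjusted p = 0.815) and -0.02 in the neurons (adjusted p = 0.906).

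Finally, the pattern of each human member over the 12 human libraries was set beside those of 6914 other genes averaging 20 CPM or more. The libraries share 3 cell types and 2 fractions, so that these Pearson correlations of log2 CPM describe likeness only. The nearest genes were CXCL12 for LIN28A (r = 0.992), ZNF92 for LIN28B (0.996), AASS for L1TD1 (0.992), CHP1 for IGF2BP1 (0.982), FOXN3 for IGF2BP2 (0.993), N4BP2 for IGF2BP3 (0.99) and SLC44A1 for HMGA2 (0.993). Next in order were UTRN and GRPR, TRIM59 and CEP295, NEB and SPP1, BIRC6 and SLC44A2, NLK and TRIM24, ZNF66 and FGD6, and PDK3 and CCNG1, in the same order of members (r = 0.971 to 0.996). Among the members themselves, LIN28A and L1TD1 were most alike (r = 0.99) and LIN28B and IGF2BP1 least (r = -0.41).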

How the data were processed

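P-body and cytoplasm RNA was sequenced in 16 libraries, 2 per fraction and cell type. The tables deposited by the authors hold unnormalised counts, 1 row per gene symbol, made against hg38 or mm10. No gene summed to fewer than 10 reads. The study's methods describe salmon within nf-core RNA-seq for total RNA, and hisat2 with featureCounts for Smart-seq. Tables of the authors' own DESeq2 comparisons were deposited too and were not used. The 7 genes and the lists were chosen with earlier results of these data known.

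Counts were tested with edgeR 4.0.16 in R 4.3.3 (quasi-likelihood test, TMM factors, no covariate, two-sided, Benjamini-Hochberg over all genes with a count, threshold 0.05), each contrast fitted on its own libraries. The SE was taken from the log2 change and its p. Nothing states that replicates came from separate cultures, so p-values measure the spread between libraries. An exact permutation test of 2 against 2 libraries was not used. CPM are per library total, and 3 counts, the floor, corresponded to 0.167 to 0.471 CPM. Replicates differed beyond sampling noise in every group. The main fit of each contrast was tested on simulated counts with the same dispersion for every gene, and the other steps were not. Per list and cell type, the 2 called genes with the largest change in each direction and a mean of at least 20 CPM were named, except some that are not reported here, each then given in every cell type, and for the members' pattern the 3 most correlated genes. Alternatives were DESeq2 1.42.0, RLE factors, library size only, filterByExpr, no filter, ribosomal RNA genes left out, a replicate block, a single fit of the 12 human libraries, and leaving out each library in turn. They were read for the members and for counts over all genes, not for the genes of the lists. Sequences came from RefSeq (GRCh38.p14) and GENCODE 44 and M21.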

Additional observations from a re-analysis of the deposited data

Results flagged for a closer look

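Interaction tests marked 12 differences in P-body enrichment between cell types, as differences of log2 changes. Between day-20 neurons and liver bud progenitors these were LIN28A (1.41), LIN28B (1.74), IGF2BP2 (-0.74), IGF2BP3 (0.42) and HMGA2 (-1.54). Between neurons and HEK293T they were LIN28B (2.16), IGF2BP1 (0.79), IGF2BP2 (-0.49) and IGF2BP3 (0.56), and between liver bud progenitors and HEK293T LIN28B (0.33), IGF2BP1 (0.59) and HMGA2 (1.96). Of all genes, 9.21% were called higher and 8.5% lower in the first comparison, 6.35% and 6.19% in the second, and 12.5% and 15% in the third. The IGF2BP2 and IGF2BP3 calls, and that of LIN28B in the third comparison, were lost under alternatives given in the Results. Only the first comparison stays within 1 line and 1 kind of library. In the other two, cell type and library preparation cannot be told apart.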

How the results depend on the processing

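Of 830 refits of the 63 member results, 774 kept direction and call, 34 lost the call, 12 gained one and 10 changed sign. With the 12 human libraries in a single fit, 7 members were called in the neurons in place of 4. Over all genes, 4387 were then enriched and 4936 depleted there, in place of 3220 and 3123. Leaving out 1 library moved the number called for neurons minus HEK293T between 2 and 4, against 4 with all. Signs changed with library size alone for IGF2BP2 in the neurons (0.03549) and Igf2bp1 in mESC (-0.12), the latter called both ways. Leaving out 1 library, with the lone sample assumed to vary like the others, changed the sign of uncalled values. These then ranged from -0.0776 to 0.5038 for L1TD1 in HEK293T, from -0.2764 to 0.01171 for IGF2BP2 in the neurons, from -0.1318 to 0.03861 for Igf2bp3 in mESC, from -0.1161 to 0.1171 for IGF2BP1 in neurons minus liver bud progenitors, and from -0.0628 to 0.1346 for IGF2BP3 in liver bud progenitors minus HEK293T. The causes were not tested.

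With the replicate block, 5 members were called in HEK293T, 7 in the liver bud progenitors, 4 in the neurons and 4 in mESC, as without it, and no member call changed. The numbers are shared labels only: deviations of same-numbered libraries correlated at -0.018 to 0.056 across genes. L1TD1 in HEK293T has no value under DESeq2 or filterByExpr. Depth limits LIN28A and L1TD1 in HEK293T, at 3 to 19 counts per library.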
